A study of Homo sapiens with 8 samples.

Results

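The mitochondrial protein import machinery was followed as 35 named genes, the rows of the deposited count table whose Ensembl gene carries one of those symbols, out of 60646 rows. All 35 were found, and 34 of them had enough counts to be tested among 19877 tested genes. The membership follows from the names and not from the measured values. RNA was sequenced from 8 samples of MDA-MB-231, an established human line of a triple-negative breast cancer, in 2 groups. The knockout group (4 samples, replicates 1, 2, 3 and 5) is labelled with the genotype DOT1L knockout, written DOT1L/+ in the treatment text, and was edited with a guide RNA directed at the first exon of DOT1L, which encodes the methyltransferase of lysine 79 of histone H3. The wild-type group (4 samples, replicates 1, 2, 3 and 5) had the unedited gene. Both groups grew in DMEM with fetal bovine serum and were collected the day after plating at partial confluency, and no other treatment was named. How many edited clones were used, and whether the libraries of a group came from separate cultures, is not in the labels. The p-values therefore reflect differences among the libraries at hand, which can be technical.

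Nearly all mitochondrial proteins are encoded in the nucleus, made in the cytosol and carried in as unfolded chains. They enter through the TOM complex of the outer membrane and are then handed on. Barrel proteins go to the SAM complex, cysteine-rich proteins to the MIA disulfide relay, carriers to the small TIM chaperones and the TIM22 complex, and proteins with a presequence to the TIM23 complex. The motor of the TIM23 complex, built around the chaperone HSPA9 (mortalin), pulls the chain into the matrix, where the processing peptidase removes the presequence.

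DOT1L stood at 85.3, 78.1, 83.2 and 92.3 CPM (read counts relative to the scaled library total) in the knockout libraries, against 115, 101, 103 and 118 CPM in the wild-type libraries. All 4 knockout libraries lay below all 4 wild-type libraries, and the log2 change of -0.37 (SE 0.06, adjusted p = 2.83e-05, edgeR quasi-likelihood) left 77.5% of the wild-type level. Reads were counted over the whole gene, so the level does not show the edit itself. Totals ran from 40103408 to 50031412 counts per library. Of the markers listed for the line, VIM, AXL, CAV1, CD44 and MSN averaged 521 to 3871 CPM in knockout and 495 to 2941 CPM in wild-type libraries. ESR1, PGR and CDH1 averaged at most 0.538 CPM in knockout and 0.262 CPM in wild-type libraries, and the leukocyte marker PTPRC averaged 0.139 CPM in knockout and 0.0513 CPM in wild-type libraries. ERBB2 and EPCAM, listed as low, were detected at 73.8 and 6.74 CPM in knockout and 86.9 and 6.62 CPM in wild-type libraries. Of the 17 markers listed 11 had enough counts to be tested. GATA3, listed as low, and CD3E, CD68, PECAM1, ALB and MYOD1, listed for other cell types, are not reported here. The RNA is from bulk samples, in which fewer cells of a type and less RNA per cell cannot be told apart.

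More import genes were lower than higher in knockout cells. Of the 34 tested genes 15 passed the test (47.6% of all tested genes did). Of these genes 13 fell (38.2%), against 23.6% of all tested genes, and 2 rose (5.88%), against 23.9% of all tested genes, at a Benjamini-Hochberg adjusted p below 0.05 over all 19877 genes. The other 19 did not pass, with log2 changes from -0.12 to 0.12. The largest fall was that of TIMM50, the receptor of the TIM23 complex (log2 change -1.21), followed by GRPEL1, a nucleotide exchange factor of the motor (-0.70), TIMM13, a small TIM chaperone (-0.51), TIMM10B (-0.46), HSPA9 (-0.40), TIMM17A (-0.38) and TOMM40, the outer membrane channel (-0.29). The genes that rose were PAM16 (0.36), a regulator of the motor, and SAMM50 (0.12), the core of the SAM complex.

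Most of these differences were small. Falls of at least 0.5 on the log2 scale numbered 3 (8.82% of the tested import genes), a share near the 9.09% of all tested genes, and rises of that size numbered 0, against 12.8% of all tested genes. The median log2 change was -0.09 over the tested import genes and 0.00 over all tested genes. In 14 genes (41.2%) all 4 knockout libraries lay below all 4 wild-type libraries, which 22.1% of all tested genes did, and in 1 gene (PAM16) all 4 lay above, which 21.3% did. Wild-type replicate 3 was the highest wild-type library for 28 of the 34 genes (82.4%), against 32.3% of all tested genes. Without that library 10 import genes fell (29.4%, against 22.9% of all tested genes) and 6 rose (17.6%, against 24.4%).

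**Figure D1:**
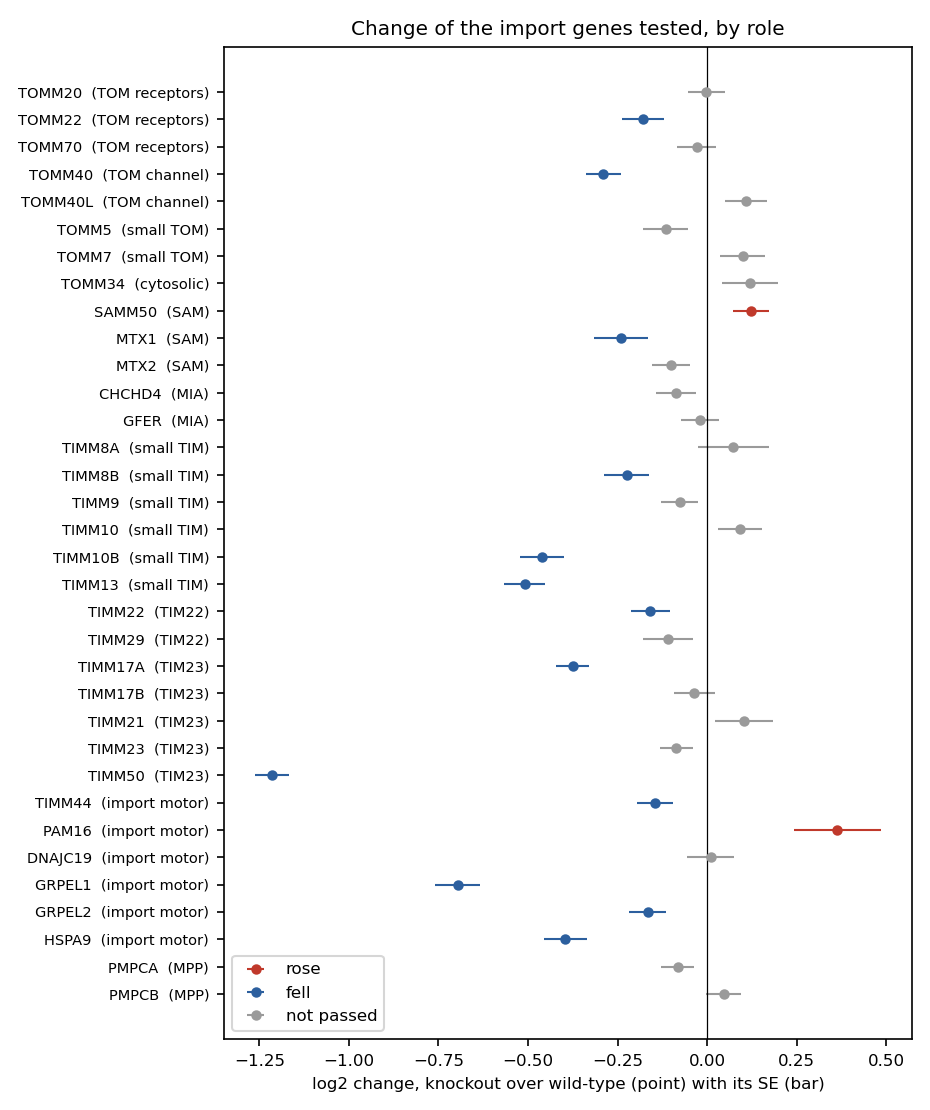
Log2 change of each of the 34 tested import genes, knockout over wild-type, as points with bars for the standard error, grouped from top to bottom by place in the import route. Blue genes fell and red genes rose at an adjusted p below 0.05. TIMM50 at -1.21 and GRPEL1 at -0.70 lie farthest to the left, and PAM16 at 0.36 lies farthest to the right.

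The scaling of the libraries bears on the smaller falls. Over all genes 50.3% of the calls were rises with trimmed-mean scaling, 61.9% with upper-quartile scaling and 61.2% with library totals. With upper-quartile scaling 8 import genes fell (18.6% of all tested genes did) and 5 rose (30.3% of all), and with library totals 8 fell (18.8% of all) and 6 rose (29.7% of all). These scalings moved the median of all genes by 0.07 and 0.06 on the log2 scale. The median of the import genes minus that of all genes was -0.09 under each of the 3 scalings. With that common shift TOMM22, MTX1, TIMM22, TIMM44 and GRPEL2 missed the threshold, which says nothing of their place relative to other genes. By the same shift TOMM7, TOMM40L and TIMM10 passed as rises under both scalings, and TOMM34 with library totals. TOMM40, TIMM8B, TIMM10B, TIMM13, TIMM17A, TIMM50, GRPEL1 and HSPA9 stayed called as lower under every setting run for them. Relative to the median change of their 50 chromosomal neighbours (38 for TIMM22) 15 import genes fell (22.4% of all genes did) and 3 rose (22.2% of all). Relative to their 10 nearest tested genes 17 fell (23.8% of all) and 2 rose (22.6% of all). TOMM22 did not pass relative to its 50 neighbours (-0.14, adjusted p = 0.0574), nor TIMM22 relative to its 10 nearest genes (-0.06, adjusted p = 0.372). TOMM5 passed as lower relative to its 50 neighbours (-0.23, adjusted p = 0.00510), and TIMM9 relative to both sets (-0.14 and -0.16, adjusted p = 0.0377 and 0.0131). TOMM20 passed as lower relative to its 10 nearest genes (-0.18, adjusted p = 0.00553), while its own log2 change was 0.00. The tests relative to neighbouring genes took the median as a fixed value. Their p-values leave out its error and the spread among the neighbours. A pass is a difference from that median, which need not be a change of the gene itself.

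Promoters of 32 import genes were found in the RefSeq table of 300-base promoters (250 bases before to 50 after the start, GRCh38.p14), and those of TIMM8B, TOMM5 and GRPEL1 were not. Of the promoters below, that of TIMM50 belongs to the gene with the largest fall, that of HSPA9 is the one promoter of a fallen gene with an E-box, and that of PAM16 belongs to the gene with the largest rise. They lie at chr19:39480588-39480887 on the plus strand (TIMM50), chr5:138575352-138575651 on the minus strand (HSPA9) and chr16:4351272-4351571 on the minus strand (PAM16). Each is written 5′ to 3′ on the strand of its gene. Capitals mark the letters searched on both strands, which were CACGTG (the E-box of MYC, MAX and Mondo proteins), GCATGC (the core of the site of NRF1, the nuclear respiratory factor), CCGGAA (the core of ETS factors such as GABPA) and GGGCGG (SP1).
TIMM50: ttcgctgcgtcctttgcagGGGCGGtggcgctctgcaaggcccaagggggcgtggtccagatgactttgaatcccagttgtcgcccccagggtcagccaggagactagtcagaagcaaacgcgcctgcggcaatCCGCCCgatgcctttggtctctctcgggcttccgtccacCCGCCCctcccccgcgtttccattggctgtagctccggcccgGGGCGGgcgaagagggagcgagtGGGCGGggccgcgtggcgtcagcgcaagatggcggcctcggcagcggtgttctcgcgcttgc
HSPA9: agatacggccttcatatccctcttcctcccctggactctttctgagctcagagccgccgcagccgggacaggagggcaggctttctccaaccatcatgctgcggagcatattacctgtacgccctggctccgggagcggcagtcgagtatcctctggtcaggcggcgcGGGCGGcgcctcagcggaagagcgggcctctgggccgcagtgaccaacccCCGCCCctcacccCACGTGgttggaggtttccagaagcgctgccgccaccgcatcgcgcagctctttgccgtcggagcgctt
PAM16: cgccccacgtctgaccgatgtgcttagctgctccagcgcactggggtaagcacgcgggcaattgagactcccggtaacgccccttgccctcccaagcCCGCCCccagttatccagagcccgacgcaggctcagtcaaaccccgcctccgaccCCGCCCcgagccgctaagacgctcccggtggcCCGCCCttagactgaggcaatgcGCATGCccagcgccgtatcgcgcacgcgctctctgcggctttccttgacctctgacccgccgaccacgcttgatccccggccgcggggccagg

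TIMM50's promoter held 5 SP1 matches and 0 of the other motifs, that of HSPA9 held 1 E-box and 2 SP1 matches, and that of PAM16 held 1 NRF1 core and 3 SP1 matches. An E-box was in 4 of the 32 promoters (12.5%; HSPA9, TIMM8A, TIMM10 and TOMM20), against 9.34% of the promoters of tested genes and 7.26% of all promoters in the table. The ETS core was in 16 (50.0%), against 28.1% of tested genes and 17.2% of all promoters. The NRF1 core was in 7 (21.9%), against 8.73% and 7.22%, and the SP1 letters were in 22 (68.8%), against 67.0% and 45.0%. Among the 11 fallen genes whose promoter was found, 4 had the ETS core and 1 the NRF1 core, against 11 and 5 of the 18 genes that did not pass. A match is a description of letters, and no binding was measured.

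Of the 3 receptors of the TOM complex, 1 fell (33.3%, against 23.6% of all tested genes) and 2 did not pass. TOMM20, which recognises presequences, averaged 207 ± 4.41 CPM in knockout and 208 ± 15.1 CPM in wild-type libraries (SD, n = 4 each), and its log2 change was 0.00 (SE 0.05, edgeR adjusted p = 0.983). TOMM70, the receptor for carriers, was at -0.03 (adjusted p = 0.690). TOMM22, the central receptor, had 86.5, 88.3, 85.6 and 83.0 CPM in knockout libraries, against 99.1, 91.2, 111 and 87.8 CPM in wild-type libraries. Its groups overlapped, since wild-type replicate 5 lay below knockout replicate 2. Its log2 change of -0.18 (SE 0.06, adjusted p = 0.0173) lost its call without wild-type replicate 3 (-0.11, adjusted p = 0.0623).

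TOMM40 (ENSG00000130204, chromosome 19, 44890569 to 44903689, plus strand, hg38) forms the channel through which nearly all imported proteins pass. It had 182, 179, 177 and 185 CPM in knockout libraries, against 226, 205, 237 and 216 CPM in wild-type libraries. The groups did not overlap, and the log2 change was -0.29 (SE 0.05, edgeR adjusted p = 3.96e-05), 81.8% of the wild-type level. Its paralog TOMM40L, a channel of the same fold, stood at 22.9 ± 0.657 CPM in knockout and 21.2 ± 1.14 CPM in wild-type libraries and did not pass (0.11, adjusted p = 0.135), though it passed as a rise without wild-type replicate 3 (0.14, adjusted p = 0.0462). The tested small subunits of the channel complex, which steady it, did not pass in the main fit. TOMM7 had 27.2, 28.4, 29.5 and 26.2 CPM in knockout libraries, against 25.3, 27.0, 28.1 and 23.4 CPM in wild-type libraries (0.10, adjusted p = 0.207), and TOMM5 was at -0.12 (adjusted p = 0.143). TOMM6 was listed with 0 counts in all 8 libraries. A floor of 3 counts would be 0.0600 to 0.0748 CPM per library. An unnamed gene on the same strand (ENSG00000124593, 953 counts over the 8 libraries) and USP49 on the other strand overlap TOMM6, and whether the counting dropped reads shared by overlapping genes is not given in the sources used here.

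TOMM34, a cytosolic co-chaperone that holds precursors before import, had 283, 264, 262 and 244 CPM in knockout libraries, against 249, 235, 278 and 205 CPM in wild-type libraries. The groups overlapped. Its log2 change of 0.12 (SE 0.08, edgeR adjusted p = 0.227) passed once the replicate number entered as a block (0.13, with an adjusted p of 0.0266) and without wild-type replicate 3 (0.20, adjusted p = 0.0188).

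Of the 3 genes of the SAM complex, which inserts barrel proteins into the outer membrane, 1 rose near the threshold, 1 fell and 1 did not pass. Of all tested genes 23.9% rose and 23.6% fell. SAMM50, the barrel that does the inserting, had 49.2, 49.4, 46.9 and 46.7 CPM in knockout libraries, against 43.0, 43.7, 47.2 and 42.7 CPM in wild-type libraries. Wild-type replicate 3 lay among the knockout libraries. The log2 change of 0.12 (SE 0.05, edgeR adjusted p = 0.0474) was close to the threshold. It missed it in each fit that left out 1 library other than wild-type replicate 3 or knockout replicate 5, with adjusted p from 0.0676 to 0.134, and also with relative log expression scaling, the lenient filter, DESeq2 and limma, with adjusted p from 0.0502 to 0.0905. It was -0.15 relative to the median change of the 10 nearest tested genes (adjusted p = 0.0200), and its call held in 8 of 19 alternatives.

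The metaxins, which flank SAMM50, were lower or level. MTX1 had 9.80, 9.75, 9.13 and 9.28 CPM in knockout libraries, against 10.9, 10.9, 12.3 and 10.7 CPM in wild-type libraries. Its groups did not overlap, and it fell by 0.24 on the log2 scale (SE 0.08, edgeR adjusted p = 0.0123). MTX2 averaged 33.1 ± 1.72 CPM in knockout and 35.5 ± 0.939 CPM in wild-type libraries. It lay below wild-type in all 4 knockout libraries without passing (-0.10, adjusted p = 0.128), and passed relative to its 10 nearest genes (-0.20, adjusted p = 0.00451).

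Neither gene of the MIA relay passed without an adjustment for neighbouring genes. CHCHD4 (MIA40), the oxidoreductase that traps cysteine-rich proteins in the intermembrane space, had 39.4, 39.3, 36.4 and 38.6 CPM in knockout libraries, against 43.3, 38.3, 43.1 and 38.4 CPM in wild-type libraries. These overlap, with a log2 change of -0.09 (SE 0.06, edgeR adjusted p = 0.214). CHCHD4 passed as lower relative to its 50 neighbours (-0.14, adjusted p = 0.0386) and to its 10 nearest genes (-0.15, adjusted p = 0.0275). GFER, the oxidase that recycles CHCHD4, averaged 33.4 ± 1.38 CPM in knockout and 33.9 ± 1.16 CPM in wild-type libraries (-0.02, adjusted p = 0.791).

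Of the 6 small TIM chaperones, substrates of CHCHD4 that carry hydrophobic proteins across the intermembrane space, 3 fell and 3 did not pass. The share that fell was 50.0%, against 23.6% of all tested genes. TIMM13 (ENSG00000099800, chromosome 19, 2425624 to 2427894, minus strand), the partner of TIMM8A, had 36.4, 36.8, 35.5 and 38.6 CPM in knockout libraries, against 51.8, 48.7, 58.6 and 50.6 CPM in wild-type libraries. Knockout libraries were close together and all below wild-type. The log2 change was -0.51 (SE 0.06, edgeR adjusted p = 2.00e-07), 70.3% of the wild-type level, and it was -0.41 relative to the 10 nearest tested genes. LMNB2, which overlaps TIMM13 on the same strand, fell by 0.27 (adjusted p = 7.12e-05), and the share of reads the overlap could take was not tested.

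TIMM10B, a small TIM of the TIM22 complex, had 20.2, 18.8, 18.8 and 19.0 CPM in knockout libraries, against 26.4, 23.9, 27.5 and 27.8 CPM in wild-type libraries. All knockout libraries lay below wild-type, with a log2 change of -0.46 (SE 0.06, edgeR adjusted p = 2.19e-06). The gene sits in a neighbourhood that was lower as a whole (median of the 50 neighbouring genes -0.28), and relative to it TIMM10B stood at -0.18 (adjusted p = 0.0200). ARFIP2, which overlaps it on the opposite strand, fell by 0.22 (adjusted p = 0.000696).

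TIMM8B fell by 0.22 (26.3 ± 1.42 CPM in knockout and 30.7 ± 2.66 CPM in wild-type libraries, adjusted p = 0.00592). TIMM9 and TIMM10, which form the main carrier chaperone together, did not pass, at -0.08 (adjusted p = 0.243) and 0.09 (adjusted p = 0.240), nor did TIMM8A at 0.07 (adjusted p = 0.577). Without wild-type replicate 3, TIMM10 passed as a rise (0.17, adjusted p = 0.00810), and so did TIMM8A (0.21, adjusted p = 0.0181). The median change of the 50 neighbours of TIMM10 was -0.25, and relative to them it stood at 0.34 (adjusted p = 0.000120).

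TIMM22, the channel for carriers in the inner membrane, had 36.9, 37.3, 37.0 and 37.1 CPM in knockout libraries, against 42.1, 42.2, 44.0 and 37.2 CPM in wild-type libraries. The knockout libraries were almost equal, and wild-type replicate 5 touched them. The log2 change of -0.16 (SE 0.05, edgeR adjusted p = 0.0207) did not pass without wild-type replicate 3 (-0.12, adjusted p = 0.0623). TIMM29, a subunit of the same complex, averaged 10.3 ± 0.306 CPM in knockout and 11.1 ± 0.249 CPM in wild-type libraries and did not pass (-0.11, adjusted p = 0.221).

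TIMM50 (ENSG00000105197, chromosome 19, 39480412 to 39493785, plus strand) receives presequence proteins from the TOM complex and, as known from its yeast counterpart, keeps the TIM23 channel shut when none is passing. TIMM50 had 40.1, 40.4, 40.2 and 38.6 CPM in knockout libraries, against 90.1, 91.2, 98.7 and 89.7 CPM in wild-type libraries. The groups lay far apart, and the spread within each was small. The log2 change was -1.21 (SE 0.05, edgeR adjusted p = 1.81e-14), leaving 43.1% of the wild-type level, and 92.9% of all tested genes had a smaller absolute change. No annotated gene overlaps it.

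The fall of TIMM50 was shared by the genes around it. It sits in a run of 11 consecutive tested genes, from GMFG to EID2 (chromosome 19, 39328353 to 39540333, a span of 212 kb), that each fell by at least 0.5, with all 4 knockout libraries below wild-type. The other 10 (GMFG, SAMD4B, PAF1, MED29, ZFP36, PLEKHG2, RPS16, SUPT5H, EID2B and EID2) had log2 changes from -1.16 for EID2 to -0.69 for SUPT5H, with a median of -0.99. SAMD4B averaged 43.9 ± 1.96 CPM in knockout and 88.5 ± 3.66 CPM in wild-type libraries, and PAF1, a subunit of an elongation complex, 29.9 ± 0.695 CPM in knockout and 59.5 ± 2.595 CPM in wild-type libraries.

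The genes next to the run on either side changed less. Counting distance from the middle of TIMM50, PAK4 at -332.8 kb had a change of -0.15, and DYRK1B at 342.7 kb had one of -0.11 (adjusted p = 0.371). Of the 80 other tested genes within 2 Mb, all outside the run, 10 fell by at least 0.5 (9.09% of all tested genes did). The median over the 80 was -0.10. Relative to its 10 nearest tested genes (median -0.89) TIMM50 stood at -0.33 (adjusted p = 7.21e-06), against -1.09 relative to its 50 neighbours (median -0.12). The 10 nearest include DYRK1B (-0.11), FBL (-0.17) and PRR13P5 (0.40), which lie outside the run. The other genes of the run all fell less than TIMM50, from -0.69 for SUPT5H to -1.16 for EID2 (SE 0.07). Whether TIMM50 fell beyond its run was not tested. The run was drawn after its values were seen, it carries no test of its own, and DNA copy number was not measured.

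**Figure D2:**
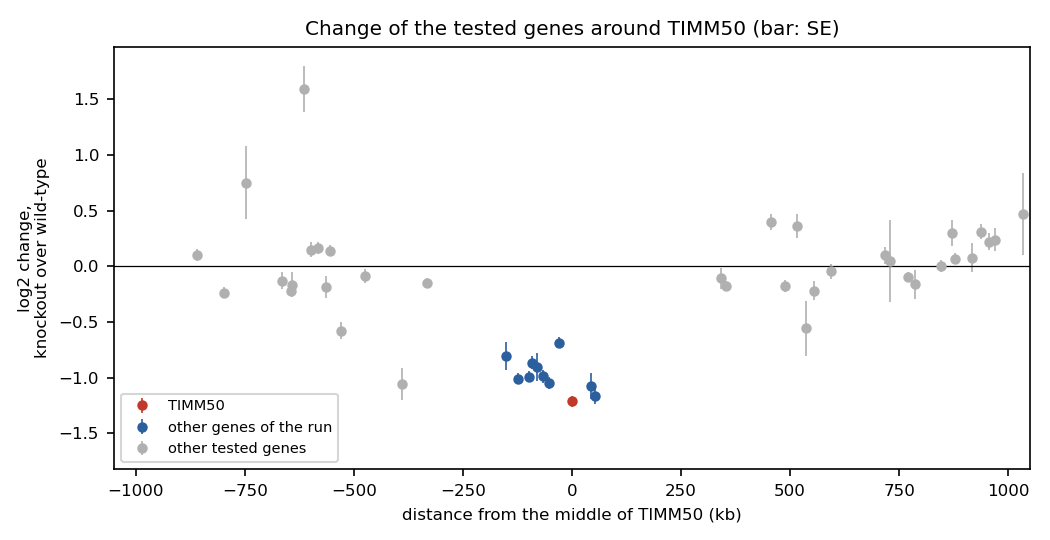
Log2 change, knockout over wild-type, of the tested genes around TIMM50 against distance from its middle in kb, with bars for the standard error. TIMM50 is red, the 10 other genes of the run are blue and lie between -1.16 and -0.69, and the nearest genes outside the run (grey) lie at -0.15 and -0.11.

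TIMM17A and TIMM17B are alternative partners of the TIM23 channel, and TIMM17A (ENSG00000134375, chromosome 1, 201955491 to 201970661, plus strand) is the one known for fast turnover of its protein under stress. TIMM17A had 45.4, 45.6, 46.0 and 45.0 CPM in knockout libraries, against 58.6, 56.4, 62.1 and 59.0 CPM in wild-type libraries. All knockout libraries lay below wild-type, with a log2 change of -0.38 (SE 0.05, edgeR adjusted p = 8.72e-07), and it was also -0.38 relative to the 10 nearest tested genes. TIMM17B had 35.7, 35.9, 33.0 and 31.0 CPM in knockout libraries, against 36.0, 34.8, 34.98 and 33.2 CPM in wild-type libraries, which overlap (-0.04, adjusted p = 0.641).

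TIMM23, the channel itself, averaged 94.3 ± 2.17 CPM in knockout and 100.003 ± 5.57 CPM in wild-type libraries and did not pass (-0.09, adjusted p = 0.145). The median change of its 50 neighbours was 0.13, and relative to them it stood at -0.21 (adjusted p = 0.000925). Its near-identical copy TIMM23B averaged 6.97 ± 0.782 CPM in knockout and 7.12 ± 0.288 CPM in wild-type libraries (-0.03, adjusted p = 0.808), so how reads were shared between the copies is uncertain. TIMM21, which links the TIM23 complex to TOM, did not pass (0.10, adjusted p = 0.313).

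Of the 6 genes of the import motor 4 fell (66.7%, against 23.6% of all tested genes) and 1 rose (16.7%, against 23.9%). GRPEL1 (ENSG00000109519, chromosome 4, 7058906 to 7068197, minus strand) frees ADP from HSPA9 so that it can pull again. It had 35.3, 33.5, 35.6 and 41.4 CPM in knockout libraries, against 60.3, 57.7, 63.5 and 54.8 CPM in wild-type libraries. Knockout replicate 5 was the highest of its group and still well below wild-type. The log2 change was -0.70 (SE 0.06, edgeR adjusted p = 1.33e-08), 61.7% of the wild-type level. No annotated gene overlaps it. The next tested gene, TADA2B, fell by 0.34 (adjusted p = 0.000185), the median of the 10 nearest was -0.30, and relative to them GRPEL1 stood at -0.39 (adjusted p = 3.29e-05).

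HSPA9 (ENSG00000113013, chromosome 5, 138553756 to 138575724, minus strand), the chaperone that does the pulling, had 565, 563, 562 and 574 CPM in knockout libraries, against 724, 686, 863 and 706 CPM in wild-type libraries. The knockout libraries were nearly equal, and wild-type replicate 3 was the highest by far. The log2 change was -0.40 (SE 0.06, edgeR adjusted p = 1.45e-05), 76.0% of the wild-type level, and its call held without wild-type replicate 3. GRPEL2, the second exchange factor, had 67.8, 70.9, 76.2 and 75.2 CPM in knockout libraries, against 80.3, 76.2, 88.5 and 80.4 CPM in wild-type libraries, and fell by 0.17 (adjusted p = 0.0127).

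TIMM44, the anchor of HSPA9 at the channel, averaged 53.4 ± 1.18 CPM in knockout and 59.0 ± 3.72 CPM in wild-type libraries. It fell by 0.15 (edgeR adjusted p = 0.0212), did not pass without wild-type replicate 3 (-0.10, adjusted p = 0.0779) or without knockout replicate 3 (-0.14, adjusted p = 0.0655), and was at 0.01 relative to its 10 nearest genes (adjusted p = 0.875).

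Of the J-proteins of the motor, which control the ATP hydrolysis of HSPA9, 1 rose and 1 did not pass. Of all tested genes 23.9% rose. PAM16 (ENSG00000217930, chromosome 16, 4331549 to 4355607, minus strand), whose yeast counterpart restrains the other, had 3.63, 3.41, 3.85 and 4.05 CPM in knockout libraries, against 3.04, 2.605, 2.62 and 3.33 CPM in wild-type libraries. All knockout libraries lay above wild-type, the closest pair at 3.41 and 3.33 CPM, on 104 to 204 counts per library. The log2 change of 0.36 (SE 0.12, edgeR adjusted p = 0.0180) did not pass without knockout replicate 5 (adjusted p = 0.0528) or without wild-type replicate 2 (adjusted p = 0.0610). Overlapping genes of its strand include CORO7 (-0.06, adjusted p = 0.613) and unnamed transcripts with 1095 and 1372 counts over the 8 libraries, against 1238 for PAM16. These transcripts changed by 0.31 and 0.32 without passing (adjusted p = 0.104 and 0.0534). The part of overlapping genes in the counts of PAM16 was not tested. DNAJC19 (TIM14 in yeast), the partner that stimulates HSPA9, averaged 20.9 ± 1.10 CPM in knockout and 20.7 ± 1.63 CPM in wild-type libraries (0.01, adjusted p = 0.919).

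**Figure D3:**
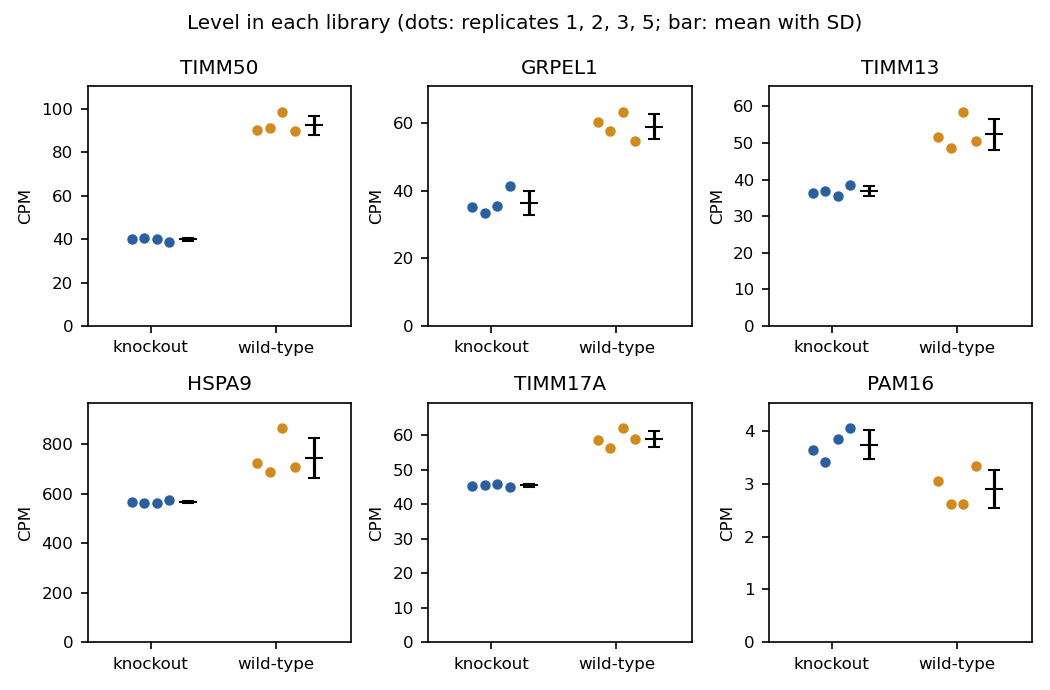
CPM in each library for 6 import genes, with dots for replicates 1, 2, 3 and 5, knockout on the left and wild-type on the right, and a bar for the mean with its SD. TIMM50 lies at 38.6 to 40.4 CPM in knockout and 89.7 to 98.7 CPM in wild-type libraries, and PAM16 is the one gene shown whose knockout libraries are higher.

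The processing peptidase, which cuts presequences off in the matrix, did not pass in either subunit. PMPCA had 49.3, 46.8, 47.2 and 47.8 CPM in knockout libraries, against 49.8, 50.0, 51.9 and 50.6 CPM in wild-type libraries. The groups did not overlap but lay close, with a log2 change of -0.08 (SE 0.05, edgeR adjusted p = 0.148). The catalytic PMPCB averaged 59.0 ± 1.90 CPM in knockout and 57.1 ± 3.11 CPM in wild-type libraries (0.05, adjusted p = 0.473).

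Paralogs of the same role were set against each other within each library, as the log2 ratio of their counts. The 4 pairs were chosen after the changes of their genes were seen, so the ratios are a description and carry no test. The ratio of TIMM17A to TIMM17B was 0.43 ± 0.10 in knockout and 0.76 ± 0.07 in wild-type libraries (SD, n = 4 each), a difference of -0.34. The ratio of GRPEL1 to GRPEL2 was -0.996 ± 0.11 in knockout and -0.46 ± 0.07 in wild-type libraries, a difference of -0.53. That of TOMM40 to TOMM40L was 2.98 ± 0.05 in knockout and 3.38 ± 0.10 in wild-type libraries, a difference of -0.40. In these 3 pairs no knockout library reached the wild-type range. The ratio of TIMM8A to TIMM8B was -0.45 ± 0.16 in knockout and -0.76 ± 0.14 in wild-type libraries, a difference of 0.31. Its groups overlapped where knockout replicate 2 met wild-type replicate 3, and within libraries of the same number the knockout ratio was the higher one in 4 of 4, by 0.08 to 0.64.

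**Figure D4:**
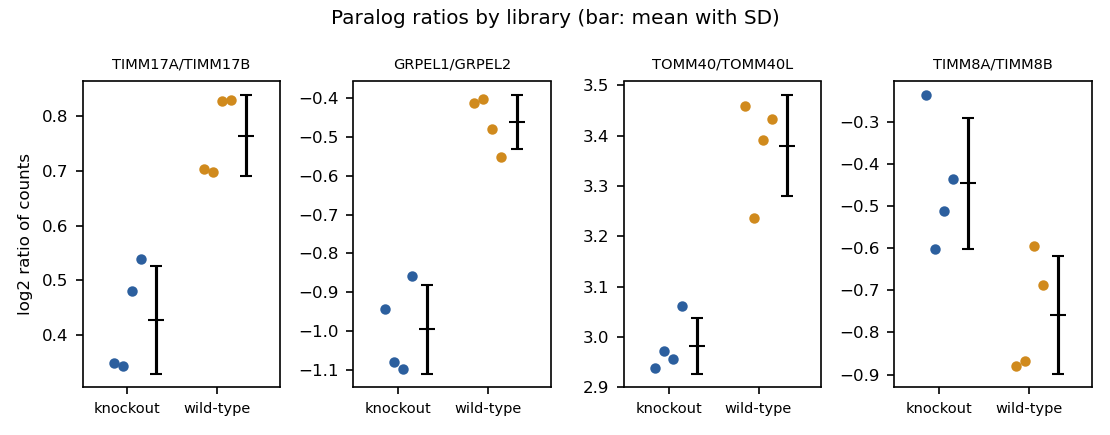
Log2 ratio of the counts of 2 paralogs in each library, knockout on the left and wild-type on the right in each panel, with a bar for the mean and its SD. The vertical axes differ between panels and do not start at 0. Knockout and wild-type libraries are apart for TIMM17A/TIMM17B, GRPEL1/GRPEL2 and TOMM40/TOMM40L and meet for TIMM8A/TIMM8B.

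Levels of different import genes were compared as CPM per kb of annotated exon. The order depends on that length, which was 2062 bases for TOMM34, 8254 for HSPA9, 1222 for TIMM23 and 6911 for TIMM50. Whether the annotated exons match the transcripts of these cells was not tested. By CPM alone HSPA9 stood above TOMM34, at 745 against 242 in wild-type and 566 against 263 in knockout libraries. Per kb TOMM34 was highest at 128 ± 7.68 CPM per kb in knockout and 117 ± 14.8 in wild-type libraries. HSPA9 stood at 68.6 ± 0.682 CPM per kb in knockout and 90.2 ± 9.75 in wild-type libraries, and TIMM23 at 77.1 ± 1.78 in knockout and 81.8 ± 4.56 in wild-type libraries, so that these neighbours in the order lay within their spread of each other in wild-type cells but not in knockout cells. PAM16 was lowest of the tested genes, at 1.57 ± 0.115 CPM per kb in knockout and 1.22 ± 0.148 in wild-type libraries. TIMM50 stood at 5.76 ± 0.120 CPM per kb in knockout and 13.4 ± 0.616 in wild-type libraries, which put it at place 28 of 34 in knockout cells and at place 19 in wild-type cells. In wild-type cells its neighbours in the order, TIMM17B and TIMM22 at 13.6 ± 0.450 and 13.0 ± 0.917 CPM per kb, did not differ from it beyond their spread.

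Genes that act just outside the import machinery gave a mixed picture. Of 14 tested genes of other import and insertion factors 2 rose (14.3%, against 23.9% of all tested genes), 3 fell (21.4%, against 23.6%, a share near that of all genes) and 9 did not pass, with a median log2 change of -0.02. Those with the smallest adjusted p were DNAJC15, a J-protein related to DNAJC19 (-0.24, edgeR adjusted p = 0.000304), GHITM, an inner membrane protein (-0.22, 0.00127), AGK, a lipid kinase that is also a subunit of the TIM22 complex (-0.17, 0.00618), and MIPEP, which trims some presequences further (0.21, 0.0197). Relative to the 10 nearest genes DNAJC15 and MIPEP did not pass (-0.09 and 0.11, adjusted p = 0.125 and 0.224).

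Among 12 tested genes of folding and quality control inside mitochondria 7 fell (58.3%, against 23.6% of all tested genes) and 2 rose (16.7%, against 23.9%), with a median of -0.14. LONP1, the main matrix protease, averaged 88.6 ± 2.96 CPM in knockout and 129 ± 7.91 CPM in wild-type libraries, a log2 change of -0.54 (SE 0.05, edgeR adjusted p = 9.50e-09). AFG3L2 and CLPP, proteases of the inner membrane and the matrix, each fell by 0.32. Relative to its 10 nearest genes AFG3L2 stood at -0.01 (adjusted p = 0.938). HTRA2, a protease of the intermembrane space, rose to 45.4 ± 3.04 CPM in knockout libraries, against 33.8 ± 1.58 CPM in wild-type libraries (0.42, adjusted p = 2.21e-06).

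Regulators of mitochondrial stress and biogenesis had 11 falls (57.9%, against 23.6% of all tested genes) and 3 rises (15.8%, against 23.9%) among 19 tested genes, with a median of -0.19. PPARGC1A (PGC-1alpha), a coactivator of mitochondrial biogenesis, rose to 11.2 ± 0.800 CPM in knockout libraries, against 4.64 ± 0.990 CPM in wild-type libraries (1.27, SE 0.11, edgeR adjusted p = 1.71e-08). PINK1, the kinase that marks mitochondria with failed import, rose by 0.34 (adjusted p = 0.000393). ATF4 and HSF1, transcription factors of the integrated stress and heat shock responses, fell by 0.31 and 0.25 on the log2 scale (adjusted p = 1.89e-05 and 3.59e-05). HSF1 did not pass relative to its 50 neighbours (-0.04, adjusted p = 0.482) or its 10 nearest genes (-0.01, adjusted p = 0.929).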

How the data were processed

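Counts per gene were deposited by the authors as whole numbers for 8 samples, with a second table of log2-scale variance-stabilized values. Reads were aligned to hg38, and DESeq2 1.23.10, FastQC 0.11.7, Subread 1.6.2 with featureCounts, and STAR 2.6.0c are listed, per the submitters' processing notes. Per the labels' protocols, the libraries were stranded and made from RNA depleted of ribosomal RNA. The annotation, strand and multimapping settings are not given in the sources used here. Of 41 pseudogene rows named after 14 import genes 23 had a count.

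The counts were fitted with edgeR 4.0.16 in R 4.3.3 (filterByExpr, TMM, robust quasi-likelihood, group only, Benjamini-Hochberg adjusted p below 0.05 over all 19877 genes), and CPM used TMM factors. The procedure was also run on simulated data, and the outcome is not reported here. Coordinates and exon lengths came from GENCODE 29 (58459 of 60646 rows matched) and promoters from RefSeq. Where a symbol had several promoters, the one with the lowest start was used.

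Alternatives were other scalings and filters, DESeq2 1.42.0, limma 3.58.1 on the log2 values, the replicate number as a block, each library left out, changes relative to neighbouring genes, and counts of copies added. Over 13212 genes, libraries with the same number deviated together from their group means, with correlations of 0.376, 0.154, 0.153 and 0.391, while pairs with unlike numbers gave -0.301 to 0.0596. All 4 lay above the minimum of 0.1, so shared numbers were taken to pair the samples. Deviations from each group's own mean by themselves lower the unlike pairs when same-number pairs are positive. The main fit did not use the pairing, which entered only in the alternative with the replicate number as a block.

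The import genes and lists were chosen with earlier results of these data known. All 35 import genes were named, with full values by library for changes of at least 0.5 and at least 1 gene of each step, and from each of 3 other lists the 4 called genes with the smallest adjusted p. The pseudogenes tested and TIMM23B were added. Genes of the TIMM50 run, nearest genes and overlapping genes were named after their values were seen. Planned protein features were not analysed here.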

Additional observations from a re-analysis of the deposited data

Results flagged for a closer look

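In 6 of 70 sets of 4 libraries (each tested import gene, and DOT1L, in each group) the highest or lowest library stood far from the other 3, beyond Dixon's 95% value, where chance gives about 1 in 20, or 3.5. Wild-type replicate 3 was the high one in 5 of them. It stood at 12.3 CPM for MTX1 against 10.7 to 10.9 CPM in the other wild-type libraries, at 34.7 CPM for TIMM8B against 29.2 to 29.8 CPM, and at 43.2 CPM for TIMM10 against 35.2 to 36.4 CPM. For TIMM50 it stood at 98.7 CPM against 89.7 to 91.2 CPM, and for TIMM44 at 64.5 CPM against 56.4 to 57.6 CPM. Knockout replicate 1 was the high one for TIMM10B, at 20.2 CPM against 18.8 to 19.0 CPM in the other knockout libraries.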

How the results depend on the processing

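The count of import genes that rose was 2. It was 5 with upper-quartile scaling and 6 with library totals (30.3% and 29.7% of all tested genes rose). It was 1 with each of relative log expression scaling, the lenient filter, DESeq2 and limma on the deposited values (23.8%, 19.5%, 22.9% and 23.4% of all). When 1 library was left out it was 0 to 6, with 0 without wild-type replicate 2 (22.1% of all) and 6 without wild-type replicate 3 (24.4% of all). The count that fell was 13, but 8 with upper-quartile scaling and with library totals (18.6% and 18.8% of all tested genes fell). When 1 library was left out it was 10 to 13, where 21.1% to 22.9% of all tested genes fell. The median log2 change of the tested import genes was -0.09, with -0.020 under upper-quartile scaling and -0.023 under library totals, where the median of all genes moved by 0.07 and 0.06 and the import genes minus all genes stayed at -0.09. It was -0.15 relative to the 10 nearest genes (an alternative chosen after seeing the data, as were the paralog ratios), and -0.11 to -0.06 when 1 library was left out. Relative to the 10 nearest genes SAMM50 changed sign to -0.15 and TIMM44 to 0.011, and 17 import genes fell and 2 rose, against 23.8% and 22.6% of all genes. With the replicate number as a block 13 import genes fell (26.1% of all tested genes did) and 3 rose (26.6% of all). TOMM34 passed (0.13, adjusted p = 0.0266), and the block changed no other call of an import gene. Of the 13 genes that fell 8 were called under every setting run for them, and of the 2 that rose 0 were. Apart from the common shift of the scalings, the cause was not tested. Depth limits PAM16, with 104 to 204 counts per library. TOMM6 was listed at 0 in every library, and whether the counting dropped reads shared with overlapping genes was not tested.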

Other observations

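Processed pseudogenes of the import genes gave 9 tested rows, of which 2 fell (23.6% of all tested genes did). TOMM40P4 averaged 8.76 ± 0.0789 CPM in knockout and 11.1 ± 1.24 CPM in wild-type libraries (SD, n = 4 each), a log2 change of -0.34 (edgeR adjusted p = 0.00197), and HSPA9P1 averaged 5.14 ± 0.650 CPM in knockout and 6.63 ± 1.05 CPM in wild-type libraries (-0.37, adjusted p = 0.0132). The groups of HSPA9P1 overlapped, at 4.63 to 6.09 CPM in knockout and 5.80 to 8.14 CPM in wild-type libraries. The parents of these 2 rows, TOMM40 and HSPA9, changed by -0.29 and -0.40. The counts of TOMM40P4 came to 4.94% and those of HSPA9P1 to 0.899% of the parent's, so reads of near-identical sequence could sit in either row or in both. Outside the import genes, EEF1A1P5 held 99.7% of the counts of EEF1A1, and how reads of copies were counted was not tested. DNAJC19P9 held 24.7% of the counts of DNAJC19 and did not pass (0.18, adjusted p = 0.132). TOMM20P4, TOMM40P1, TOMM40P2, TIMM8AP1, DNAJC19P5 and GRPEL2P2 did not pass either, with log2 changes from -0.22 to 0.13. Adding the counts of pseudogenes to their parents moved the median change of the import genes by less than 0.01, and would repeat any read counted in both rows.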
